A study of Rattus norvegicus with 10 samples.

Results

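The collagen genes and the genes whose products modify, fold, trim and cross-link collagen were compared between bone-derived cells of the skull and of the limb. Members were the genes whose array symbol has the form Col, number, a, number, together with 16 named processing genes, and for a gene with several probes the brightest was taken. This gave 40 genes, 25 collagens and 15 processing genes, of 13336 named genes and 22517 probes on the array. The named probes used here covered 25 of the 44 collagen genes in the rat RefSeq table, and Col4a2 and Col6a3 were not analysed here, nor was the processing gene Pcolce2.

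Cells came from the calvaria, the flat roof of the skull (S-Bdc, 5 cultures), and from the ulnar cortex, a long limb bone (L-Bdc, 5 cultures). Both cultures of a pair came from the same rat, so the design held 5 matched pairs from 5 untreated male CD rats that the study calls adult. Third-digest cells were grown to passage 3 and 95% confluence in serum-containing medium, and RNA of each culture was hybridised to 1 Illumina rat array. Such digests can hold other cells beside osteoblasts, and expansion on plastic over several passages limits the cultures as a model of the bone they came from.

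Collagens are triple helices of 3 chains, which may be copies of 1 gene product or come from several genes. In bone, fibrils of type I collagen with smaller amounts of types III and V form the scaffold that takes up mineral. In the endoplasmic reticulum prolyl and lysyl hydroxylases modify the chains and the chaperone Serpinh1 (Hsp47) holds the folded helix. Outside the cell proteases remove the end propeptides, and lysyl oxidases begin the cross-links that tie molecules together.

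Median raw signal was 40.6 to 48.1 per array. On the deposited processed intensities, 11607 to 11623 probes of each array lay above the background range. That count depends on how those intensities were processed and does not compare detection between the raw arrays. Arrays of the same site correlated at 0.9896 to 0.9948 and arrays of different sites at 0.9815 to 0.9875, over all probes. Of the osteoblast markers, Alpl (alkaline phosphatase) and Ibsp (bone sialoprotein) lay above background on all arrays, but at low signal. Mean normalised log2 signals were 6.91 in S-Bdc and 6.76 in L-Bdc for Alpl, and 6.48 and 6.46 for Ibsp. Bglap (osteocalcin) lay above background on 3 arrays of S-Bdc and on 1 of L-Bdc, and Sp7 (osterix) on 2 of S-Bdc and on 1 of L-Bdc. Spp1 (osteopontin) was lower in S-Bdc by a log2 difference of -1.81 ± 0.12 (SE), with an adjusted p of 3.13e-05 from limma. Genes of dividing cells also moved with site. Of 21 such genes limma called 17 lower in S-Bdc at an adjusted p under 0.05, where 4.68% of all probes were called lower. The uncalled ones also had negative log2 differences, from -0.50 to -0.05. The value of -0.05 is that of Ccnb1, which stayed within background on all arrays and gave no measurable direction. The summed processed intensity of the 21 ran between 7850 and 13100 in S-Bdc, against 15300 and 17700 in L-Bdc. The per-rat medians of their log2 differences were -0.35, -0.246, -0.655, -0.835 and -1 in rats 1 to 5. Their part in the collagen results was not tested. RNA was taken from whole cultures, so fewer cells of a type and less RNA per cell cannot be told apart.

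Of the 40 genes 9 were higher in S-Bdc and 3 were lower, and the differences were of 1.24-fold to 1.95-fold. The transcripts higher in S-Bdc encode chains of type I, III, IV, VI, VIII and XV collagen (Col1a1, Col3a1, Col4a1, Col6a1, Col8a1 and Col15a1), a prolyl hydroxylase subunit (P4ha2), a protease of amino-terminal propeptides (Adamts2) and an enhancer of carboxy-terminal propeptide removal (Pcolce). Those lower in S-Bdc encode type XVIII collagen (Col18a1), the lysyl hydroxylase Plod2 and the lysyl oxidase Loxl2. Calls were made with limma on normalised log2 signals with rat as a block, at an adjusted p under 0.05 over all 22517 probes. By that rule 12 of 40 members (30%) were called, beside 9.10% of all probes. The 9 called higher in S-Bdc stand beside 4.43% of all probes, and the 3 called lower beside 4.68%. Signal matters for these shares, because 20.0% of the probes that lay above background on all 10 arrays were called, and 29 of the members lay in that range, all 12 called ones among them. For 9 members the S-Bdc and L-Bdc arrays did not overlap, beside 7.00% of all probes. The calls depended on the normalisation. Col4a1 alone stayed called when processed intensities floored at 16 were used, Col15a1 and Loxl2 were not called after median scaling, and without normalisation Col6a1, Col18a1 and P4ha2 were not called either.

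Over the 40 members the median log2 difference was 0.00678 and the median size of the difference 0.164, against -0.00147 and 0.0548 over all probes. Of the members 29 lay above background on all 10 arrays, against 9092 of 22517 probes, and differences of dim probes are understated here. Neither these medians nor the 7.00% for overlap were taken over probes of like signal. Called members lay on both sides of zero, among the collagens and among the processing genes. A total of 34 members lay above background on at least 1 array. The other 6 (Col2a1, Col4a3, Col4a5, Col5a3, Col6a4 and Col9a2) stayed within it on all arrays, and their differences could not be measured at this signal.

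**Figure D1:**
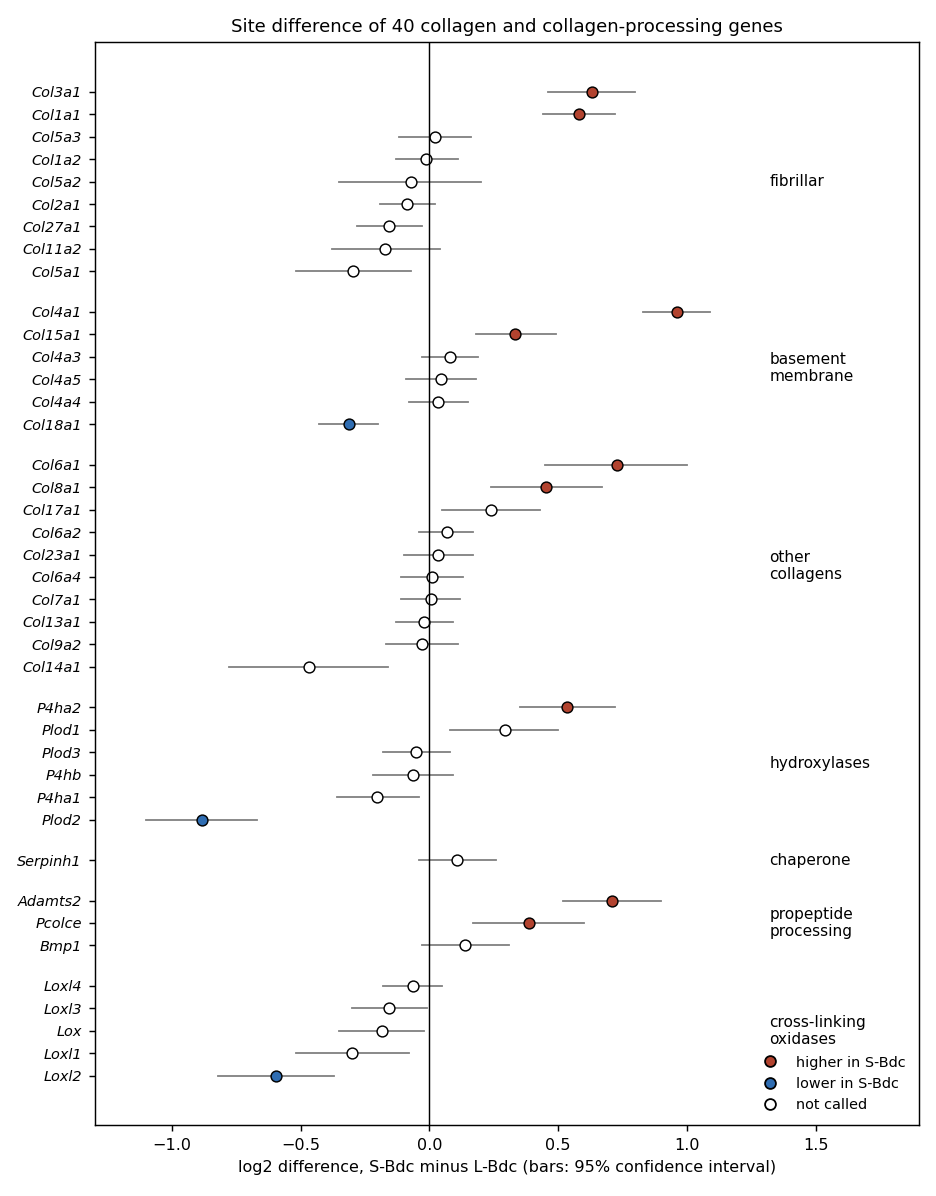
Log2 difference, S-Bdc minus L-Bdc, of the 40 genes grouped by class, with 95% confidence intervals as bars; filled points are called by limma and open points are not. Col4a1 stands farthest to the right at 0.96 and Plod2 farthest to the left at -0.89.

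Of the 9 fibrillar collagens 2 were called, Col1a1 and Col3a1, both higher in S-Bdc, and 7 were not. Col1a1 encodes the chain that makes up most of type I collagen, the main protein of bone matrix. Its normalised log2 signal was 12.73, 12.55, 12.19, 12.24 and 12.37 in S-Bdc of rats 1 to 5, against 11.90, 12.05, 11.70, 11.69 and 11.84 in L-Bdc. Every S-Bdc array lay above every L-Bdc array, and rat 1 showed the widest gap. The difference was 0.58 ± 0.06 (SE), or 1.49-fold, with an adjusted p of 0.000382 from limma.

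Col1a2 encodes the other chain of type I collagen. Its signal was 13.45, 13.57, 13.51, 13.44 and 13.53 in S-Bdc, against 13.46, 13.68, 13.35, 13.51 and 13.58 in L-Bdc. The sites overlapped throughout, and the difference of -0.01 ± 0.05 (SE) had a 95% interval of -0.13 to 0.11 and an adjusted p of 0.947 from limma. The Col1a2 probe was among the brightest on the arrays, with a highest raw signal of 12839.5 where the brightest probe of each array read 12476.3 to 15314.9. A compressed difference at that brightness was not tested. Within rats, the site difference of Col1a1 exceeded that of Col1a2 by 0.84, 0.61, 0.33, 0.62 and 0.58, a mean of 0.60 ± 0.18 (SD, n = 5 rats). This pair, like the other gene pairs below, was chosen after the values were seen and is given without a test.

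Col3a1 encodes type III collagen, which forms thin fibrils and is abundant in periosteum and in healing tissue. It measured 12.62, 12.86, 12.66, 12.87 and 12.96 in S-Bdc and 11.94, 12.30, 12.32, 12.23 and 12.03 in L-Bdc. The lowest S-Bdc array was above the highest L-Bdc array, and the difference was 0.63 ± 0.08 (SE), or 1.55-fold, with an adjusted p of 0.00079 from limma. Col5a2, the neighbouring collagen gene on chromosome 9 and a chain of the type V collagen that limits fibril width, differed by -0.07 ± 0.12 (SE; 95% interval -0.35 to 0.20). Within rats the difference of Col3a1 exceeded that of Col5a2 by 0.18 to 1.48 and that of Col1a2 by 0.18 to 0.98.

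Col5a1, the second type V chain measured with signal, was 10.96, 10.87, 10.42, 10.49 and 10.62 in S-Bdc and 10.74, 11.26, 11.03, 10.85 and 10.95 in L-Bdc. It was lower in S-Bdc in 4 of 5 rats and higher in rat 1, and the difference of -0.30 ± 0.10 (SE) was not called (adjusted p = 0.117, limma). With rat 1 left out it was called, at -0.42 and an adjusted p of 0.00178. The cartilage-type genes Col11a2 (-0.17 ± 0.09) and Col27a1 (-0.16 ± 0.06, each with SE) were above background on all arrays and not called. Both probes were dim, and the ratios of processed intensities, S-Bdc to L-Bdc, were 0.825 and 0.735. Col2a1, the main collagen of cartilage, stayed within background at both sites, and its non-overlapping arrays therefore carry no measured difference.

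Of the 6 basement membrane collagens, Col4a1 and Col15a1 were higher in S-Bdc, Col18a1 was lower, and 3 were not called. Type IV collagen forms the sheet-like network of basement membranes, and Col4a1 provides its most widespread chain. The signal of Col4a1 was 10.78, 10.91, 10.72, 10.70 and 10.80 in S-Bdc, against 9.87, 10.12, 9.77, 9.65 and 9.69 in L-Bdc. The S-Bdc arrays lay close together and well above all L-Bdc arrays, with within-rat differences of 0.78 to 1.11. The mean difference, 0.96 ± 0.06 (SE) or 1.95-fold, was the largest of the 40 members and the only call that every alternative analysis kept (adjusted p = 2.35e-05, limma). On the scale of the deposited processed intensities the ratio of S-Bdc to L-Bdc was 2.0.

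Col4a1 and Col4a2 lie head to head on rat chromosome 16, with 76 bases between their annotated starts. That stretch is shown because it precedes the member with the largest difference and lies between both genes (RefSeq, GRCr8, chr16:84885521-84885596, plus strand, 5′ to 3′ towards Col4a1), and the capitals mark a GC box, GGGCGG read on the opposite strand.
Col4a1: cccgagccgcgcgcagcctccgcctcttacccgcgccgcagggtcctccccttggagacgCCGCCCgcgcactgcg
The stretch holds 1 GC box and 78.9% G and C. RefSeq windows were matched for 32 of the 40 members, and the 250 bases before the start were searched on both strands for 4 short motifs, of which none contains another. The GC box GGGCGG was present in 20 of the 32 windows and in 7 of the 9 belonging to called genes, beside 30.5% of 33469 windows of all genes. The CCAAT box was present in 7 of the 32 and in 1 of the 9, beside 34.0% of all windows. The TATA box, as TATAAA, was present in 3 of the 32 and in 0 of the 9, beside 12.9%. The motif ACGTG is the core of the hypoxia response element and part of a common E-box. It was present in 3 of the 32 and in 2 of the 9, beside 16.6%. These are matches of letters only, and the windows of all genes were not filtered by gene type to resemble the members.

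Col15a1 and Col18a1 encode related collagens of basement membrane zones, and the end fragment of type XVIII collagen is endostatin. Col15a1 measured 10.19, 9.97, 10.27, 10.33 and 10.45 in S-Bdc and 9.78, 9.94, 9.81, 9.93 and 10.08 in L-Bdc. It was higher in S-Bdc in all 5 rats, but the sites overlapped, and rat 2 differed by only 0.03. The difference was 0.33 ± 0.07 (SE), with an adjusted p of 0.0125 from limma. The call was lost without rat 3 (adjusted p = 0.0648) and without rat 4 (0.0602).

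Col18a1 measured 6.61, 6.63, 6.43, 7.04 and 6.86 in S-Bdc and 6.88, 6.97, 6.76, 7.25 and 7.28 in L-Bdc. The sites overlapped, yet in each rat S-Bdc was the lower culture, by 0.22 to 0.42, and the difference was -0.31 ± 0.05 (SE; adjusted p = 0.0035, limma). Without the block for rat the same difference was not called (adjusted p = 0.161). The probe was dim, so the offset of the background correction shrinks its difference. On the deposited processed intensities the ratio of S-Bdc to L-Bdc was 0.635, and with those intensities floored at 16 the log2 difference was -0.69 and not called (adjusted p = 0.0622). Col4a4 differed by 0.03 ± 0.05 (SE) with signal above background on 2 arrays of each site, and Col4a3 and Col4a5 stayed within background.

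Markers of other cell types were read beside these values. Of 5 endothelial markers limma called 0, and 0 had an unadjusted p under 0.05. Cdh5, Emcn and Vwf stayed within background on all arrays, whereas Tie1 cleared it on every array and Tek on 1 array of S-Bdc. The summed processed intensity of the 5 ranged between 14.1 and 25.7 in S-Bdc, against 11.6 and 22.3 in L-Bdc. Of 3 smooth muscle and pericyte markers, Cspg4 was lower in S-Bdc (-0.35), with summed intensities between 1130 and 2090 in S-Bdc, against 1170 and 1790 in L-Bdc. The tendon marker Tnmd, a membrane protein of tendon and ligament cells, was higher in S-Bdc by 1.02 ± 0.11 (SE; adjusted p = 0.000561, limma), with processed intensities between 59.7 and 174 in S-Bdc, against 4.53 and 30.0 in L-Bdc. Of 3 chondrocyte markers limma called 0, also at an unadjusted p under 0.05, with sums between 24.3 and 47.2 in S-Bdc, against 34.7 and 54.0 in L-Bdc. Of 4 muscle markers limma called 0 and 1 had an unadjusted p under 0.05, and their sums did not overlap, between 17.9 and 37.4 in S-Bdc, against 39.3 and 83.8 in L-Bdc. Limma also called 0 of 3 adipocyte, 0 of 3 neural and 0 of 2 macrophage and osteoclast markers, with 1, 0 and 0 at an unadjusted p under 0.05. Their sums overlapped, between 57.7 and 129 in S-Bdc, against 33.9 and 120 in L-Bdc for the adipocyte list, and between 1460 and 2290 in S-Bdc, against 1780 and 2250 in L-Bdc for the macrophage and osteoclast list. Of the latter list Ptprc, the pan-leukocyte marker, stayed within background on all arrays, so nearly all of that sum came from Ctsk. Ctsk cleared background on every array, with site means of 10.83 (S-Bdc) against 10.98 (L-Bdc) after normalisation, and was not called. The neural sums lay between 22.9 and 35.5 in S-Bdc, against 21.5 and 41.7 in L-Bdc. The part of these cell types in the collagen values was not tested.

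Of the 10 other collagens, Col6a1 and Col8a1 were higher in S-Bdc and 8 were not called. Col6a1 encodes a chain of type VI collagen, the beaded filament around many connective tissue cells. Its signal was 10.72, 10.96, 9.36, 10.35 and 10.08 in S-Bdc, against 9.48, 9.99, 9.14, 9.69 and 9.52 in L-Bdc. S-Bdc levels varied more between rats than those of any other called member, with rat 3 lowest at both sites, and the S-Bdc array of rat 3 fell within the L-Bdc range. The difference was nevertheless positive in every rat, from 0.22 in rat 3 to 1.24 in rat 1, with a mean of 0.73 ± 0.12 (SE), or 1.66-fold (adjusted p = 0.00489, limma). Without the block for rat it was not called (adjusted p = 0.103). Col6a2, its neighbour on chromosome 20 and partner in the type VI molecule, cleared background on 2 arrays of S-Bdc and on 0 of L-Bdc and gave no measurable difference.

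Col8a1, a short-chain collagen of vessel walls and of the membrane beneath the corneal endothelium, measured 12.99, 13.30, 12.96, 12.96 and 12.86 in S-Bdc and 12.77, 12.65, 12.59, 12.81 and 11.99 in L-Bdc. All S-Bdc arrays lay above all L-Bdc arrays, although the gap between the lowest S-Bdc array and the highest L-Bdc array was narrow, and the L-Bdc array of rat 5 lay far below the other L-Bdc arrays. The difference was 0.45 ± 0.10 (SE), or 1.37-fold (adjusted p = 0.0176, limma), and the call was lost without rat 2 or rat 3, where the highest adjusted p was 0.0638.

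Col14a1, a collagen that sits on the surface of fibrils, showed the largest difference among members that were not called. It measured 11.88, 11.61, 12.09, 12.50 and 11.95 in S-Bdc and 12.58, 12.63, 12.15, 12.48 and 12.54 in L-Bdc. S-Bdc was lower in 4 of 5 rats and about level in rat 4, and the difference of -0.47 ± 0.14 (SE) had an adjusted p of 0.0684 from limma. Without rat 4 it was called, at -0.59. Col17a1, a membrane collagen of hemidesmosomes, differed by 0.24 ± 0.08 (SE; adjusted p = 0.13). Its probe was dim, and the ratio of processed intensities, S-Bdc to L-Bdc, was 1.49. The remaining members of the class (Col7a1, Col13a1, Col23a1, Col6a4 and Col9a2) differed by -0.03 to 0.03 and were not called. Of these, Col6a4 and Col9a2 stayed within background, and Col13a1 cleared it on 0 arrays of S-Bdc and on 1 of L-Bdc. Their values near zero therefore give no measured difference.

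**Figure D2:**
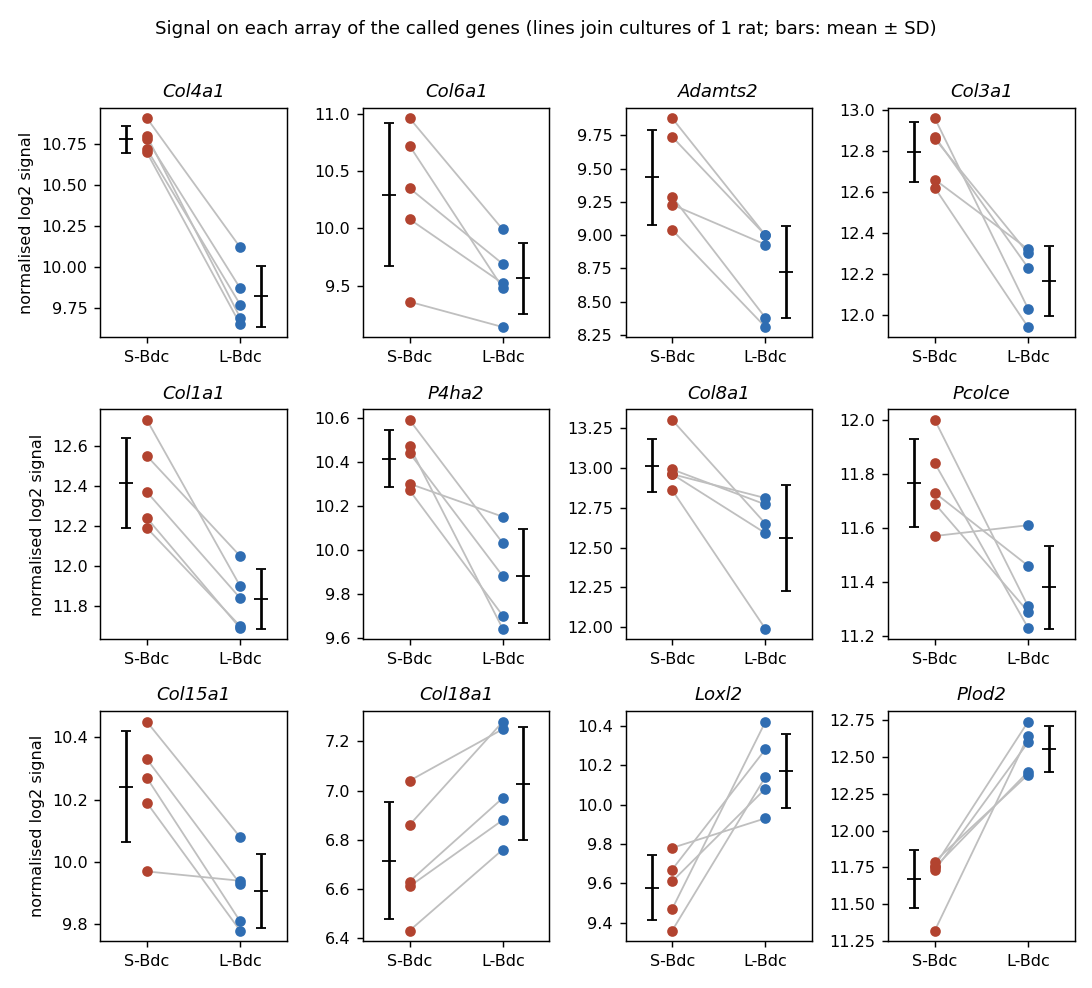
Normalised log2 signal of the 12 called genes on each array, S-Bdc left and L-Bdc right; lines join both cultures of 1 rat and bars give mean ± SD of 5 cultures. Panels have their own axes, and 11 of the 12 genes moved the same way in all 5 rats, Pcolce being the exception.

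Of the 15 processing genes measured, 5 were called, P4ha2, Adamts2 and Pcolce higher and Plod2 and Loxl2 lower in S-Bdc. Among the 6 hydroxylase genes 1 was higher, 1 lower and 4 were not called. Prolyl 4-hydroxylase, which stabilises the triple helix, is a tetramer of a catalytic subunit (P4ha1 or P4ha2) with P4hb, the protein disulphide isomerase. P4ha2 measured 10.27, 10.30, 10.44, 10.47 and 10.59 in S-Bdc and 9.70, 10.15, 9.88, 9.64 and 10.03 in L-Bdc. The sites did not overlap, the smallest gap being that of rat 2, and the difference was 0.53 ± 0.08 (SE), or 1.45-fold (adjusted p = 0.00337, limma).

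P4ha1 ran between 10.90 and 11.17 in S-Bdc, against 11.05 and 11.43 in L-Bdc, and the sites overlapped. S-Bdc was the lower culture in every rat, by a mean of -0.20 ± 0.07 (SE), which was not called (adjusted p = 0.13, limma). The difference of P4ha2 exceeded that of P4ha1 in every rat, by 0.62 to 1.02 with a mean of 0.74 ± 0.16 (SD, n = 5 rats). P4hb, which also serves other enzymes, differed by -0.06 ± 0.07 (SE; 95% interval -0.22 to 0.09).

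The lysyl hydroxylases prepare lysines for cross-linking. Plod1 acts mainly on the helix, Plod2 on the telopeptides at the chain ends, where hydroxylation sets the type of cross-link found in bone, and Plod3 also adds sugars. Plod2 measured 11.75, 11.32, 11.79, 11.73 and 11.76 in S-Bdc and 12.40, 12.64, 12.38, 12.60 and 12.74 in L-Bdc. No S-Bdc array reached the lowest L-Bdc array, and the S-Bdc array of rat 2 lay below the other S-Bdc arrays. The difference was -0.89 ± 0.10 (SE), 1.85-fold lower in S-Bdc, with an adjusted p of 0.00044 from limma, and it was the largest decrease of the 40 members.

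Plod1 measured 11.13, 10.82, 10.96, 11.05 and 11.21 in S-Bdc and 10.69, 10.96, 10.80, 10.54 and 10.71 in L-Bdc. It was higher in S-Bdc in all rats except rat 2, and the difference of 0.29 ± 0.09 (SE) was not called (adjusted p = 0.0954, limma). Within rats the difference of Plod1 exceeded that of Plod2 by 0.75 to 1.48, a mean of 1.18 ± 0.28 (SD, n = 5 rats). Plod3 differed by -0.05 ± 0.06 (SE; 95% interval -0.18 to 0.08).

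The 120 bases before the starts of Plod2 and P4ha2, the hydroxylase genes called in opposite directions, are shown for comparison (RefSeq, GRCr8, plus strand; Plod2 chr8:101964198-101964317, P4ha2 chr10:38743774-38743893). Capitals mark GGGCGG on either strand and ACGTG.
Plod2: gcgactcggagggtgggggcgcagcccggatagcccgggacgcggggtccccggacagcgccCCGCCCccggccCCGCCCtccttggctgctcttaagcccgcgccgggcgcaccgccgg
P4ha2: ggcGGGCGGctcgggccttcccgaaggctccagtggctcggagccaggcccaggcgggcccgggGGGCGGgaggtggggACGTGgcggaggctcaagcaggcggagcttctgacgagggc
Both hold 2 GC boxes in this stretch, and the P4ha2 stretch also holds 1 ACGTG. Their G and C content was 81.7% for Plod2 and 77.5% for P4ha2.

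**Figure D3:**
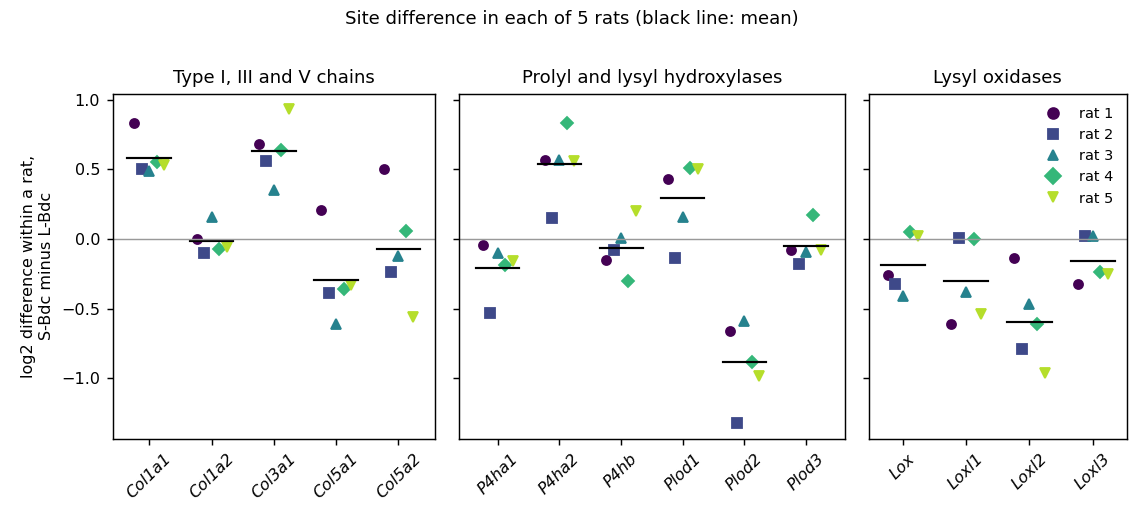
Log2 difference within each of 5 rats, S-Bdc minus L-Bdc, for type I, III and V chains, prolyl and lysyl hydroxylases and lysyl oxidases; black lines are means. P4ha2 lies at 0.53 and P4ha1 at -0.20, Plod1 at 0.29 and Plod2 at -0.89, and the 4 oxidases below zero.

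Serpinh1, the collagen chaperone, differed by 0.11 ± 0.07 (SE; 95% interval -0.04 to 0.26) and was not called. Its probe was dim, so this difference is understated, and the ratio of processed intensities, S-Bdc to L-Bdc, was 1.16. Of the 3 propeptide processing genes, Adamts2 and Pcolce were higher in S-Bdc and Bmp1 was not called. Adamts2 removes the amino-terminal propeptides of fibrillar procollagens. It measured 9.88, 9.04, 9.29, 9.74 and 9.23 in S-Bdc and 9.00, 8.31, 8.38, 9.00 and 8.93 in L-Bdc. The sites did not overlap, though the lowest S-Bdc array lay just above the highest L-Bdc arrays, and rat 5 showed the smallest gap at 0.30. The difference was 0.71 ± 0.08 (SE), or 1.64-fold, with an adjusted p of 0.000726 from limma.

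Bmp1 removes the carboxy-terminal propeptides, and Pcolce binds the propeptide and speeds that step. Pcolce measured 11.73, 12.00, 11.57, 11.69 and 11.84 in S-Bdc and 11.46, 11.31, 11.61, 11.29 and 11.23 in L-Bdc. It was higher in S-Bdc in 4 of 5 rats and near level in rat 3, and the sites overlapped through that rat. The difference was 0.39 ± 0.10 (SE), or 1.31-fold (adjusted p = 0.0339, limma). The call was lost without rat 2, rat 4 or rat 5, with a highest adjusted p of 0.117. Bmp1 differed by 0.14 ± 0.08 (SE; adjusted p = 0.413).

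Of the 5 cross-linking oxidases 1 was lower in S-Bdc and 4 were not called. Loxl2, an oxidase that also acts on type IV collagen, measured 9.78, 9.36, 9.61, 9.67 and 9.47 in S-Bdc and 9.93, 10.14, 10.08, 10.28 and 10.42 in L-Bdc. Every S-Bdc array lay below every L-Bdc array, with the smallest gap in rat 1. The difference was -0.59 ± 0.10 (SE), 1.51-fold lower in S-Bdc (adjusted p = 0.00516, limma).

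Lox, the founding lysyl oxidase, measured 13.10, 13.02, 12.82, 13.26 and 13.07 in S-Bdc and 13.36, 13.34, 13.24, 13.21 and 13.05 in L-Bdc. It was lower in S-Bdc in rats 1 to 3 and about level in rats 4 and 5, and the difference of -0.19 ± 0.08 (SE) was not called (adjusted p = 0.208, limma). Within rats the difference of Lox minus that of Loxl2 was -0.11, 0.46, 0.05, 0.66 and 0.97 in rats 1 to 5. The mean was 0.41 ± 0.44 (SD, n = 5 rats), so this pair did not keep 1 direction in every rat. Loxl1, which is best known for elastic fibres, differed by -0.30 ± 0.10 (SE; adjusted p = 0.0981), and its second probe by -0.19 ± 0.10 (adjusted p = 0.387), so both probes pointed the same way. Loxl3 differed by -0.16 ± 0.07 (SE; adjusted p = 0.229), and Loxl4 cleared background on 0 arrays of S-Bdc and on 2 of L-Bdc, which gave no measurable direction.

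Further genes of collagen modification, export and binding were counted from a list of which 21 genes were measured, and 2 of them were called, a share near the 9.10% of all probes. P4ha3, a further catalytic subunit of prolyl 4-hydroxylase, was lower in S-Bdc by -0.27 ± 0.05 (SE; adjusted p = 0.00983, limma) in 5 of 5 rats. Crtap, the helper protein of prolyl 3-hydroxylation, was higher by 0.22 ± 0.06 (SE; adjusted p = 0.0447) in 5 of 5 rats, a call that was lost in 10 of 13 alternatives. The nearest of the uncalled genes were the prolyl 3-hydroxylase P3h2 (-0.33 ± 0.09, adjusted p = 0.0621) and Itga2, a chain of a collagen receptor (-0.22 ± 0.06, adjusted p = 0.0766). The median difference of the 21 was -0.0483.

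**Figure D4:**
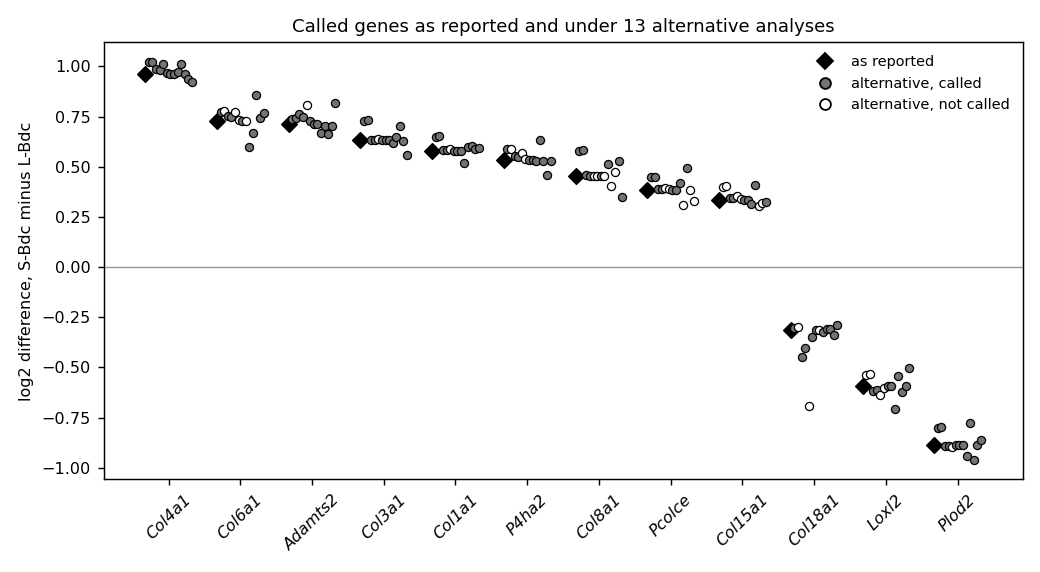
Log2 difference, S-Bdc minus L-Bdc, of the 12 called genes as reported (diamonds) and under 13 alternative analyses (circles, filled where called and open where not). All 12 stayed on the same side of zero in every alternative, and 1, Col4a1, stayed called in all of them.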

How the data were processed

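Raw bead signals of 10 Illumina rat arrays (5 S-Bdc, 5 L-Bdc, 1 per culture) were the starting point. The deposited raw table holds each probe's average intensity, exported by the authors from BeadStudio without background subtraction or normalisation. Processed intensities of these arrays are in the deposited value table, with 24.1% of values at or below 0. The settings of that step are not given in the sources used here. The authors' tables share no identifiers, so rows were joined by the similarity of their ranks over the 10 arrays. A mutual best match was found for all 22517 raw rows, with a largest distance of 0.264% of ranks and the next row at least 6.346 times farther, and 6 value rows without a raw row were left out. Gene symbols depend on this join and the platform annotation.

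Raw signals were corrected by normexp (offset 50), log2 transformed, and quantile normalised between arrays (limma 3.58.1, R 4.3.3). Rat and site were the terms of a linear model, fitted by lmFit and eBayes over all 22517 probes, with Benjamini-Hochberg adjustment and a threshold of 0.05. Log2 differences are S-Bdc minus L-Bdc, and the offset understates those of dim probes. The background range is up to 8.514 processed units, the 0.95 quantile of the mirrored values at or below 0. The number of arrays limits the precision. The labels give the same rat to both cultures of a pair. After subtraction of site means, both arrays of a rat correlated at 0.0597, 0.211, 0.25, 0.176 and 0.129 in rats 1 to 5. The L-Bdc array that correlated best with an S-Bdc array was that of the same rat for rats 2 to 5. For rat 1 it was the array of rat 5.

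Every member is named, as is each called gene of the pathway list and its nearest 2 uncalled genes. Marker lists are given by counts and sums, with a few called or defining genes named, and the 17 called genes of dividing cells as a count. Members and lists were chosen with earlier results of these data known. Alternatives were median scaling, no normalisation, an offset of 16, no background correction, processed intensities floored at 16 or raised by 50, probes above background on 3 or more arrays, no block for rat, and leaving out each rat. The pipeline was tested on simulated data.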

Additional observations from a re-analysis of the deposited data

Results flagged for a closer look

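In 6 of the 80 groups of 5 arrays formed by 40 genes and both sites, 1 array lay far from the other 4 by Dixon's criterion, which chance alone meets in about 1 of 20 groups. The S-Bdc array of rat 2 read 11.32 for Plod2, where the other S-Bdc arrays read 11.73 to 11.79, and 8.81 for Loxl3, where the others read 8.29 to 8.42. For Col8a1 the L-Bdc array of rat 5 read 11.99, below the other L-Bdc arrays at 12.59 to 12.81. The S-Bdc array of rat 5 read 6.70 for Col27a1, where the others read 6.41 to 6.46, and 5.84 for Col2a1, where the others read 5.91 to 5.93. Loxl4 read 6.08 on the S-Bdc array of rat 4 and 6.02 to 6.03 on the other S-Bdc arrays. Col2a1 and the S-Bdc arrays of Loxl4 lay within the background range. Plod2 remained called without rat 2, and Col8a1 without rat 5.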

How the results depend on the processing

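All 12 called members kept their direction in each of the 13 alternatives, and Col4a1 kept its call in all of them. The processed intensities changed most. Floored at 16 they gave 1 called collagen (1 higher, 0 lower) in place of 7 (6 higher, 1 lower), 0 processing genes in place of 5 (3 higher, 2 lower), 0 pathway genes in place of 2 and 209 probes in place of 2050; at an unadjusted p under 0.05 limma then counted 8 collagens (2 of them lower), 5 processing genes and 5 pathway genes. Raised by 50 they gave 4 collagens (3 higher), 2 processing genes (1 higher, 1 lower), 1 pathway gene and 758 probes. With no normalisation 4 collagens (0 lower, 2 at an unadjusted p under 0.05), 3 processing genes (1 lower), 0 pathway genes (4 unadjusted) and 870 probes were called. Median scaling gave 1 lower processing gene, 1 pathway gene and 1268 probes. Without the block for rat (the replicate block) 4 collagens were called, 0 lower (4 unadjusted), with Col6a1, Col8a1 and Col18a1 lost. Lower collagens numbered 2 with an offset of 16, with no background correction and with the signal filter, through Col14a1. With each rat left out, lower collagens ran from 1 to 2, pathway genes from 1 to 2 and all probes from 1324 (without rat 3) to 2224. The cause of these changes was not tested. Of the dividing-cell genes 17 were called lower in S-Bdc as reported, 11 after median scaling, 7 with no normalisation and 1 with the floor. Another 3 uncalled genes were called elsewhere: Col14a1, Col5a1 without rat 1, and Plod1 without the block or without rat 2.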
